A study of Mus musculus with 12 samples.

Results

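The receptors and ligands of the epidermal growth factor (EGF) family were followed in 3T3 cells, a mouse fibroblast line, through 10 genes taken from the deposited table by symbol: the receptors Egfr, Erbb2 and Erbb3, the ligands Hbegf, Areg, Ereg, Tgfa, Btc and Nrg1, and the inhibitor Errfi1. All 10 were among the 32544 gene symbols of the table. Of them 8 passed the filter on low counts, which 14279 symbols passed, and Erbb3 and Areg did not. Bulk RNA came from 12 libraries, 3 per group. The first group received nothing, and the other groups received extracellular vesicles (EVs), small membrane-bound particles that cells release, for 24 h. The donor line of the EVs was MDA-MB-468, which is of human breast cancer origin, grown as a control line (shCon EVs), a line with CRIPTO knocked down (shCr EVs) or a line that overexpressed CRIPTO (CrOE EVs). CRIPTO is a cell-surface protein encoded in the mouse by Tdgf1. No genetic change of the 3T3 recipients is named for any group, and all EVs were of MDA-MB-468 origin, so no group shows the effect of EVs from another cell. No group is named as a vehicle control or as a separate control of the overexpressing line. In the CrOE comparisons CRIPTO level and other differences between the donor lines thus cannot be told apart. The columns of the CrOE group were headed with the protein's name alone and were matched to it by elimination, so the group name of those 3 libraries rests on that step. The sources used here do not say that the libraries of a group came from separate cultures, and p-values then measure only the spread between these libraries, which may be technical.

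ERBB receptors are membrane tyrosine kinases that work as pairs. Ligands such as amphiregulin (Areg), epiregulin (Ereg), TGF-alpha (Tgfa), betacellulin (Btc) and heparin-binding EGF (Hbegf) bind EGFR, while neuregulins bind ERBB3 and ERBB4; ERBB2 has no known ligand of its own and serves as the partner of the others. Most ligands are made as membrane-anchored precursors that ADAM proteases cut free, and the active receptors feed the RAS-ERK and PI3K-AKT pathways. Errfi1 (MIG6) is a feedback inhibitor that is induced by receptor signalling and blocks the kinase domain. Fibroblasts are known to express EGFR and to divide in response to its ligands.

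The libraries held 25960054 to 37774020 estimated counts. The first principal component took 73.7% of the variance and placed the 3 CrOE libraries at 109 to 113 and the other 9 at -41.8 to -29.7. Tdgf1 had 0 to 3 counts in every library. All 12 fibroblast markers examined had a mean above 1 CPM (counts relative to the library total, scaled by TMM) in the untreated, shCon and shCr groups. Their summed level was 20695 to 22262 CPM in untreated cells, 25378 to 25734 CPM after shCon EVs, 16390 to 18394 CPM after shCr EVs and 8702 to 9080 CPM after CrOE EVs. Of the 12, 11 were called lower in the CrOE group than in the untreated group, where 37.0% of all tested genes were called lower. Lum, which encodes a collagen-binding proteoglycan, had at most 1 count per CrOE library. The 14 epithelial markers summed to 2.64 to 4.44 CPM over all libraries, with Epcam at 0 in each. Cldn4, an epithelial claudin, had 0 to 2 counts outside the CrOE group and 36 to 40 within it. Krt7, an epithelial keratin, went the other way, from a mean of 1.49 CPM in untreated cells to 0.572 CPM after CrOE EVs. Of the 4 epithelial markers tested, 2 were called higher and 1 lower in the CrOE than in the untreated group. In that comparison 73.7% of all tested genes were called, 36.7% higher and 37.0% lower, so these calls lay near the background share. The 7 leukocyte markers summed to 6.94 to 10.5 CPM outside the CrOE group and 3.49 to 4.95 CPM within it. The 5 endothelial markers summed to 2.21 to 3.04 CPM in untreated cells, 5.48 to 6.12 CPM after shCon EVs, 4.19 to 5.57 CPM after shCr EVs and 17.4 to 20.2 CPM after CrOE EVs, mostly from Vwf. The fibroblast, leukocyte and endothelial sums moved with the CrOE group and hence with each CrOE result below, while the epithelial sums overlapped between groups. In the shCon and shCr libraries the fibroblast and endothelial sums also lay outside the untreated range. These 2 sums thus moved with the shCon and shCr results against untreated cells too. The part of these markers in those results was not tested.

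Most members were lower after EVs. Of the 8 tested, 6 were called lower and 0 higher after shCon EVs than in untreated cells, where 38.1% of all tested genes were called, 18.0% higher and 20.2% lower. After shCr EVs 5 were lower and 1 was higher than in untreated cells, against 37.3% of all genes called, 18.4% higher and 18.8% lower. After CrOE EVs 5 were lower and 1 was higher than in untreated cells. In that comparison 73.7% of all genes were called, 36.7% higher and 37.0% lower, so 6 calls among 8 genes lay at the background share. Between shCr and shCon EVs, 2 members were called, both higher after shCr EVs, with 8.73% of all genes called, 5.22% higher and 3.51% lower. That share stands for 1247 genes, and 688, 632 or 666 were called without shCon library 1, 2 or 3, with 2 members called each time. All 8 were called between CrOE and shCon EVs, 3 higher and 5 lower, with 72.6% of all genes called, 36.5% higher and 36.1% lower. All 8 were called between CrOE and shCr EVs as well, again 3 higher and 5 lower, with 73.9% of all genes called, 36.9% higher and 37.0% lower. A call is an adjusted p under 0.05 in edgeR's quasi-likelihood test. Against untreated cells the 8 members had a median log2 fold change of -0.76 with shCon EVs, -0.46 with shCr EVs and -0.78 with CrOE EVs, where the medians of all tested genes were 0.0069, 0.020 and 0.0078. The 3 comparisons with untreated cells share the untreated libraries. With only the 2 groups compared in the fit, or without untreated library 3, the shCr count against untreated cells was 3 instead of 6. Calls over all genes fell too, from 5320 to 3754 in that fit and to 4254 without that library.

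**Figure D1:**
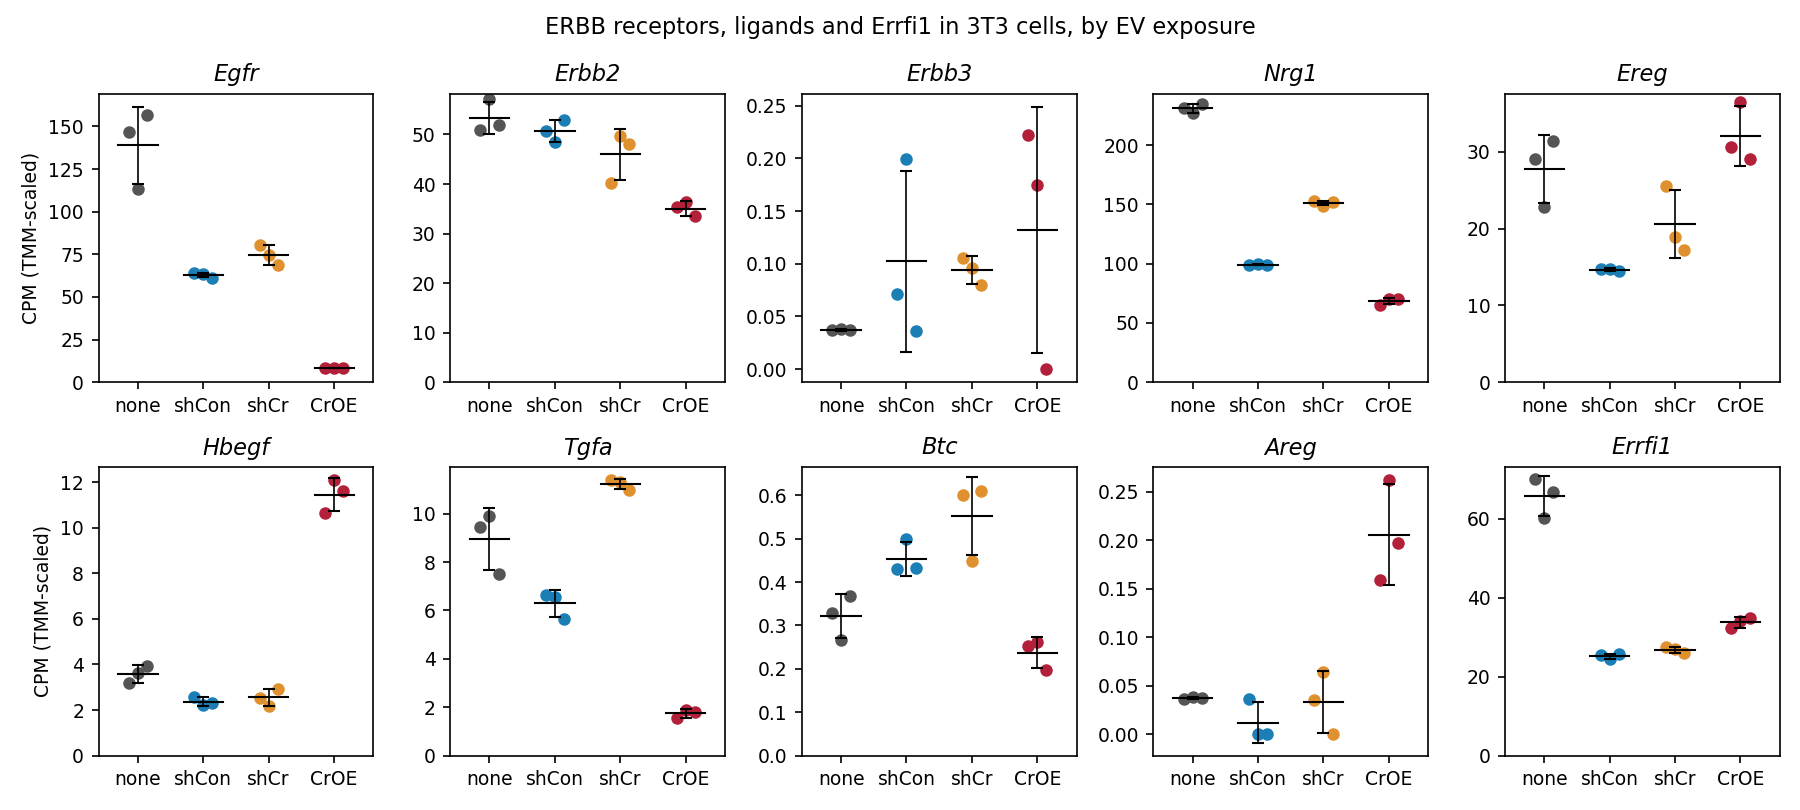
Each panel plots TMM-scaled CPM of 1 gene by library (points) for untreated cells (none) and cells given shCon, shCr or CrOE EVs, with the mean and SD of 3 libraries. Egfr sits at 8.12 to 8.47 CPM in all 3 CrOE libraries and at 61.3 to 156 CPM elsewhere, while Hbegf is at 10.7 to 12.1 CPM in the CrOE libraries and at 2.18 to 3.94 CPM elsewhere.

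Egfr, the receptor of the EGF-like ligands, changed most among the receptors. Untreated libraries 1, 2 and 3 held 147, 113 and 156 CPM. The shCon libraries held 64.0, 63.4 and 61.3 CPM, and the shCr libraries 80.2, 74.4 and 68.6 CPM. The CrOE libraries held 8.47, 8.12 and 8.26 CPM. All EV libraries lay below all untreated ones, and the CrOE libraries lay far below the rest. Egfr fell by 1.14 on the log2 scale after shCon EVs (SE 0.0993, adjusted p = 2.09e-06) and by 0.90 after shCr EVs (SE 0.0984, adjusted p = 1.35e-05). After CrOE EVs it fell by 4.07 (SE 0.116, adjusted p = 5.12e-12), a 16.8-fold lower mean level, and its size of change stood at percentile 97.3 of all tested genes. It was 7.59-fold lower after CrOE than after shCon EVs (adjusted p = 1.09e-10) and 8.98-fold lower than after shCr EVs (adjusted p = 4.24e-11). The step from shCon to shCr EVs was not called (log2 fold change 0.24, 95% interval 0.027 to 0.46, adjusted p = 0.166), although the libraries did not overlap. Untreated library 2 was the lowest untreated one and gave a coefficient of variation of 16.4% in that group, against 2.14% to 7.80% in the EV groups. In bulk RNA, fewer cells expressing a gene and less RNA per cell cannot be told apart.

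Erbb2, the ligand-less partner receptor, changed far less. It stood at 51.0, 57.1 and 51.9 CPM in untreated cells, at 50.7, 48.5 and 52.9 CPM after shCon EVs, at 40.1, 49.8 and 48.1 CPM after shCr EVs and at 35.3, 36.3 and 33.5 CPM after CrOE EVs. The CrOE libraries were the lowest of the 12 and overlapped none of the others. Erbb2 fell by 0.60 on the log2 scale after CrOE EVs against untreated cells (SE 0.0793, adjusted p = 1.45e-05). This change was near the middle of all genes, at percentile 50.6 of size. Compared with the shCon group its log2 fold change was -0.53 (adjusted p = 4.83e-05) and compared with the shCr group -0.39 (adjusted p = 5.77e-04). Against untreated cells the log2 fold change was -0.073 after shCon EVs (95% interval -0.24 to 0.098, adjusted p = 0.503) and -0.21 after shCr EVs (95% interval -0.38 to -0.041, adjusted p = 0.0515). The shCr difference did not pass here but did with DESeq2 (adjusted p = 0.0390), with DESeq2 size factors in edgeR (0.0480), with library totals (0.0468), without untreated library 1 (0.0474) and without shCr library 2 (0.0284). The shCr and shCon libraries overlapped (log2 fold change -0.14, adjusted p = 0.335).

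Erbb3, a neuregulin receptor with little kinase activity of its own, was near the detection limit and was not tested. It had 1 count in each untreated library, 2, 6 and 1 counts after shCon EVs, 3 in each shCr library and 7, 6 and 0 counts after CrOE EVs. The summed 13 counts of the CrOE group against 3 in untreated cells gave a depth-scaled ratio of 3.45 with a 95% counting interval of 0.947 to 18.9. Erbb4, the other neuregulin receptor, was at 0 counts in 11 libraries and at 2 counts in 1 CrOE library. Differences in either receptor were thus not detectable at this depth. Intervals on counts cover counting error only.

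The sequences just before the start sites of Egfr and Erbb2 are shown so that the receptor with the large fall and the one with the small fall can be compared. Each holds the 250 bases before the RefSeq transcript start in GRCm38.p6 on the plus strand, Egfr at chr11:16751953-16752202 and Erbb2 at chr11:98412234-98412483, written 5′ to 3′ with GC boxes (GGGCGG on either strand) in capitals.
Egfr: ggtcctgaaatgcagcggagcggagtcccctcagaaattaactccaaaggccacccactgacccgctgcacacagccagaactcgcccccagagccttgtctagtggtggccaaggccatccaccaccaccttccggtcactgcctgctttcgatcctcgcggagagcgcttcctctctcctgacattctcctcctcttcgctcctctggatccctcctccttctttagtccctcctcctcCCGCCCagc
Erbb2: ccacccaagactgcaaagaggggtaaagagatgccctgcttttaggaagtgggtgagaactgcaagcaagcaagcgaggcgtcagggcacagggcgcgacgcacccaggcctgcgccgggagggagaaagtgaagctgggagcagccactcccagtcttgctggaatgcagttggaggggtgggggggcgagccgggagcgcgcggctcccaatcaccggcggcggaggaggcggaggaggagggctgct
The Egfr window held 1 GC box and no TATAAA, and the Erbb2 window held neither. A GC box was found in 32.7% of the 32851 RefSeq start windows of this length and TATAAA on either strand in 12.4%. The windows of Egfr and Erbb2 were 60.8% and 66% G or C, where the median over all windows was 52.4%. Of the 10 genes, 6 were matched in the RefSeq promoter table; Erbb3, Hbegf, Ereg and Nrg1 were not.

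Hbegf, an EGFR ligand that also binds heparan sulphate, was the member called higher after CrOE EVs than in untreated cells. Untreated libraries held 3.19, 3.62 and 3.94 CPM, shCon libraries 2.58, 2.22 and 2.31 CPM and shCr libraries 2.54, 2.18 and 2.94 CPM. CrOE libraries held 10.7, 12.1 and 11.6 CPM, above every other library. Hbegf rose 3.19-fold after CrOE EVs against untreated cells (log2 fold change 1.68, SE 0.120, adjusted p = 3.77e-08). It was 4.83-fold higher than after shCon EVs (adjusted p = 3.10e-09) and 4.46-fold higher than after shCr EVs (adjusted p = 3.62e-09). The other EV groups went the other way, with log2 fold changes against untreated cells of -0.60 after shCon EVs (SE 0.136, adjusted p = 0.00408) and -0.48 after shCr EVs (SE 0.133, adjusted p = 0.0122). The shCr call was lost in the fit of those 2 groups alone (adjusted p = 0.0642), without untreated library 3 (0.0567) and without shCr library 2 (0.0528). From shCon to shCr EVs the log2 fold change was 0.12 (95% interval -0.18 to 0.41, adjusted p = 0.687).

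Ereg, a broad ligand of EGFR and ERBB4, was lowest after shCon EVs. Its libraries held 29.1, 22.9 and 31.4 CPM in untreated cells, 14.7, 14.7 and 14.4 CPM after shCon EVs, 25.6, 18.9 and 17.2 CPM after shCr EVs and 30.6, 36.5 and 29.1 CPM after CrOE EVs. The shCon libraries lay below all others, while the CrOE and untreated ranges overlapped, as did the shCr and untreated ranges. Ereg fell by 0.93 on the log2 scale after shCon EVs against untreated cells (SE 0.151, adjusted p = 3.86e-04). After CrOE EVs it did not differ from untreated cells by the test (log2 fold change 0.20, 95% interval -0.11 to 0.52, adjusted p = 0.218) and was 2.19-fold higher than after shCon EVs (adjusted p = 1.64e-05) and 1.56-fold higher than after shCr EVs (adjusted p = 0.00136). After shCr EVs it was called lower than in untreated cells (log2 fold change -0.44, adjusted p = 0.0323), a call lost in the fit of those 2 groups (0.0918) and without untreated library 1 (0.0869), untreated library 3 (0.127), shCr library 2 (0.106) or shCr library 3 (0.123). The difference between shCr and shCon EVs, 0.49 on the log2 scale, was not called (adjusted p = 0.0693). It was called with DESeq2 (0.0250), without a low-count filter (0.0444) and without shCr library 3 (0.0332).

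Tgfa, the ligand TGF-alpha, separated all EV groups. Untreated libraries held 9.45, 9.91 and 7.50 CPM, shCon libraries 6.66, 6.57 and 5.66 CPM, shCr libraries 11.4, 11.3 and 11.0 CPM and CrOE libraries 1.55, 1.89 and 1.80 CPM. The ranges of the 4 groups did not overlap, with shCr highest and CrOE lowest. Tgfa fell 5.10-fold after CrOE EVs against untreated cells (log2 fold change -2.35, SE 0.129, adjusted p = 2.58e-09). It was 3.59-fold lower than after shCon EVs (adjusted p = 3.94e-08) and 6.40-fold lower than after shCr EVs (adjusted p = 5.91e-10). After shCon EVs it fell by 0.51 on the log2 scale (SE 0.114, adjusted p = 0.00367). Tgfa was also 1.78-fold higher after shCr than after shCon EVs (log2 fold change 0.83, SE 0.111, adjusted p = 5.54e-04). The rise after shCr EVs against untreated cells was small (log2 fold change 0.33, SE 0.109, adjusted p = 0.0321). It did not pass without a low-count filter (0.0590), in the fit of those 2 groups (0.0870), or without untreated library 1 (0.0557), untreated library 3 (0.152), shCr library 2 (0.0768) or shCr library 3 (0.0564).

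The Tgfa start site is shown as that of the ligand whose mRNA separated the groups, with the 250 bases before the RefSeq start at chr6:86194972-86195221 (GRCm38.p6, plus strand, GC boxes in capitals).
Tgfa: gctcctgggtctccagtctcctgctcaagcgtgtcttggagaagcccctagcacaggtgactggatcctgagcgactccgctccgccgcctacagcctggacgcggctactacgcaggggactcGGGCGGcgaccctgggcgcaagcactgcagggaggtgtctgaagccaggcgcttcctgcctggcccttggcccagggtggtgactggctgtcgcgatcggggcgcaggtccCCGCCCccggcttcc
It held 2 GC boxes and no TATAAA, with 69.2% G or C.

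Btc, a ligand of EGFR and ERBB4, was rare, with 7 to 23.3 estimated counts per library. Its libraries held 0.330, 0.267 and 0.368 CPM in untreated cells, 0.429, 0.498 and 0.432 CPM after shCon EVs, 0.599, 0.449 and 0.610 CPM after shCr EVs and 0.254, 0.262 and 0.197 CPM after CrOE EVs. The CrOE libraries were the lowest. Btc fell by 1.21 on the log2 scale after CrOE against shCr EVs (SE 0.272, adjusted p = 0.00130) and by 0.93 against shCon EVs (SE 0.285, adjusted p = 0.0158). The latter call was lost with DESeq2 (0.0650), without shCon library 2 (0.0571) and without CrOE library 3 (0.0640). Against untreated cells no comparison passed, with log2 fold changes of 0.49 after shCon EVs (95% interval -0.12 to 1.10), 0.77 after shCr EVs (0.19 to 1.36, adjusted p = 0.0515) and -0.44 after CrOE EVs (-1.10 to 0.23). Without shCr library 2 the shCr difference passed (adjusted p = 0.0379).

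Areg, amphiregulin, was near the detection limit outside the CrOE group. It had 1 count in each untreated library, 1, 0 and 0 counts after shCon EVs, 1, 2 and 0 counts after shCr EVs and 5, 9 and 7 counts after CrOE EVs. Every CrOE library held more counts than any other library. The depth-scaled ratio of the CrOE group to untreated cells was 5.57 (21 counts against 3, 95% counting interval 1.66 to 29.1), to the shCon group 17.8 (21 against 1, 2.86 to 734) and to the shCr group 6.71 (21 against 3, 2.00 to 35.1). Areg did not pass the low-count filter. In the fit without that filter its log2 fold change after CrOE EVs was 2.35 against untreated cells (adjusted p = 0.0271), 3.73 against shCon EVs (adjusted p = 0.00389) and 2.58 against shCr EVs (adjusted p = 0.0141), values that depend on the prior count at such low levels.

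Of the remaining EGF-family ligands, Egf rose after CrOE EVs against untreated cells, with 1.65, 1.56 and 1.73 CPM in untreated and 2.66, 2.97 and 2.86 CPM in CrOE libraries (log2 fold change 0.78, SE 0.216, adjusted p = 0.00539). Its shCr libraries held 1.41, 1.76 and 2.86 CPM, so that library 3 matched the CrOE level and the other 2 did not. Against shCon EVs the CrOE value was 0.54 higher on the log2 scale (adjusted p = 0.0341), a call lost without any 1 of the 3 shCon libraries (0.0978, 0.0799 and 0.0532), CrOE library 2 (0.0832) or CrOE library 3 (0.0694). The difference between CrOE and shCr EVs, 0.47, was not called (adjusted p = 0.0535) but was without shCr library 3 (5.56e-04). Epgn, epigen, had 1 to 6 counts per library. Nrg3 had at most 2.02 estimated counts. Neither was tested. Nrg4, a ligand of ERBB4, was called in none of the 6 comparisons, at 0.465 to 1.36 CPM over all libraries. It was called lower in the CrOE than in the shCon group in 3 alternatives, without shCon library 3 (log2 fold change -0.86, adjusted p = 0.0443), with at least 10 counts in every library (-0.74, adjusted p = 0.0451) and in the fit of those 2 groups (-0.74, adjusted p = 0.0375). Nrg2 was called in 1, higher after CrOE EVs than in untreated cells (log2 fold change 0.91, adjusted p = 0.0409), and that call was lost with DESeq2 (0.121), without a low-count filter (0.0893), without untreated library 1 (0.126) or 3 (0.126) and without CrOE library 2 (0.0989) or 3 (0.112).

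Nrg1, the neuregulin that binds ERBB3 and ERBB4, was called in all 6 comparisons. Untreated libraries held 231, 227 and 235 CPM, shCr libraries 153, 149 and 152 CPM, shCon libraries 98.9, 99.5 and 99.3 CPM and CrOE libraries 65.3, 70.0 and 70.3 CPM. The 4 groups were fully separated in that order. Nrg1 fell 1.53-fold after shCr EVs (log2 fold change -0.61, SE 0.0438, adjusted p = 3.28e-07) and 2.33-fold after shCon EVs (log2 fold change -1.22, SE 0.0444, adjusted p = 3.03e-09). After CrOE EVs it fell 3.37-fold (log2 fold change -1.75, SE 0.0451, adjusted p = 2.27e-12), each against untreated cells. It was 1.52-fold higher after shCr than after shCon EVs (adjusted p = 6.79e-06). After CrOE EVs it was 1.45-fold lower than after shCon EVs (adjusted p = 1.89e-07) and 2.21-fold lower than after shCr EVs (adjusted p = 9.45e-11). Tgfa and Nrg1 were the 2 members called between shCr and shCon EVs, and both stood higher after shCr EVs.

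Errfi1, the feedback inhibitor of the receptors, was lower after every kind of EV. It stood at 70.1, 60.1 and 66.9 CPM in untreated cells, at 25.4, 24.5 and 25.7 CPM after shCon EVs, at 27.5, 26.9 and 26.0 CPM after shCr EVs and at 32.2, 34.1 and 34.9 CPM after CrOE EVs. No EV library reached the untreated range, and within the EV groups the CrOE libraries were highest. Errfi1 fell by 1.38 on the log2 scale after shCon EVs (SE 0.0639, adjusted p = 1.31e-08), by 1.29 after shCr EVs (SE 0.0633, adjusted p = 1.28e-08) and by 0.96 after CrOE EVs (SE 0.0624, adjusted p = 1.43e-08). After CrOE EVs it was 1.34-fold higher than after shCon EVs (adjusted p = 5.72e-05) and 1.26-fold higher than after shCr EVs (adjusted p = 3.70e-04). The difference of 0.088 between shCr and shCon EVs was not called (95% interval -0.052 to 0.23, adjusted p = 0.478).

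The Errfi1 start is shown as that of the inhibitor, the member whose window held most GC boxes. Of its 2 RefSeq starts the one nearer to the GENCODE coding start was used, and its 250 bases before the RefSeq start lie at chr4:150854820-150855069 (GRCm38.p6, plus strand), with GC boxes and TATAAA in capitals.
Errfi1: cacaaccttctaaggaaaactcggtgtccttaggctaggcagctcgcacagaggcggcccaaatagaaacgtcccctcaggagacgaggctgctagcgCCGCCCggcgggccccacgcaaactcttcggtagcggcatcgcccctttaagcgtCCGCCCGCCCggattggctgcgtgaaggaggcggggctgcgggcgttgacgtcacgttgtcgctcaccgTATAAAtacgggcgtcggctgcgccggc
This window held 3 GC boxes, of which neighbouring matches overlap, and 1 TATAAA, a motif that the Areg window also held once. The window of the other Errfi1 start held no GC box and no TATAAA and was 38% G or C, so the motifs depend on the start used. TGANTCA, the AP-1 motif, and CACGTG, the E-box, were found in none of the 7 windows of the 6 matched members on either strand, and they occurred in 6.75% and 6.02% of all RefSeq windows. CGGAAG, an ETS core, was found once in the Egfr window and in 13.6% of all windows. A match or its absence describes these letters only.

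**Figure D2:**
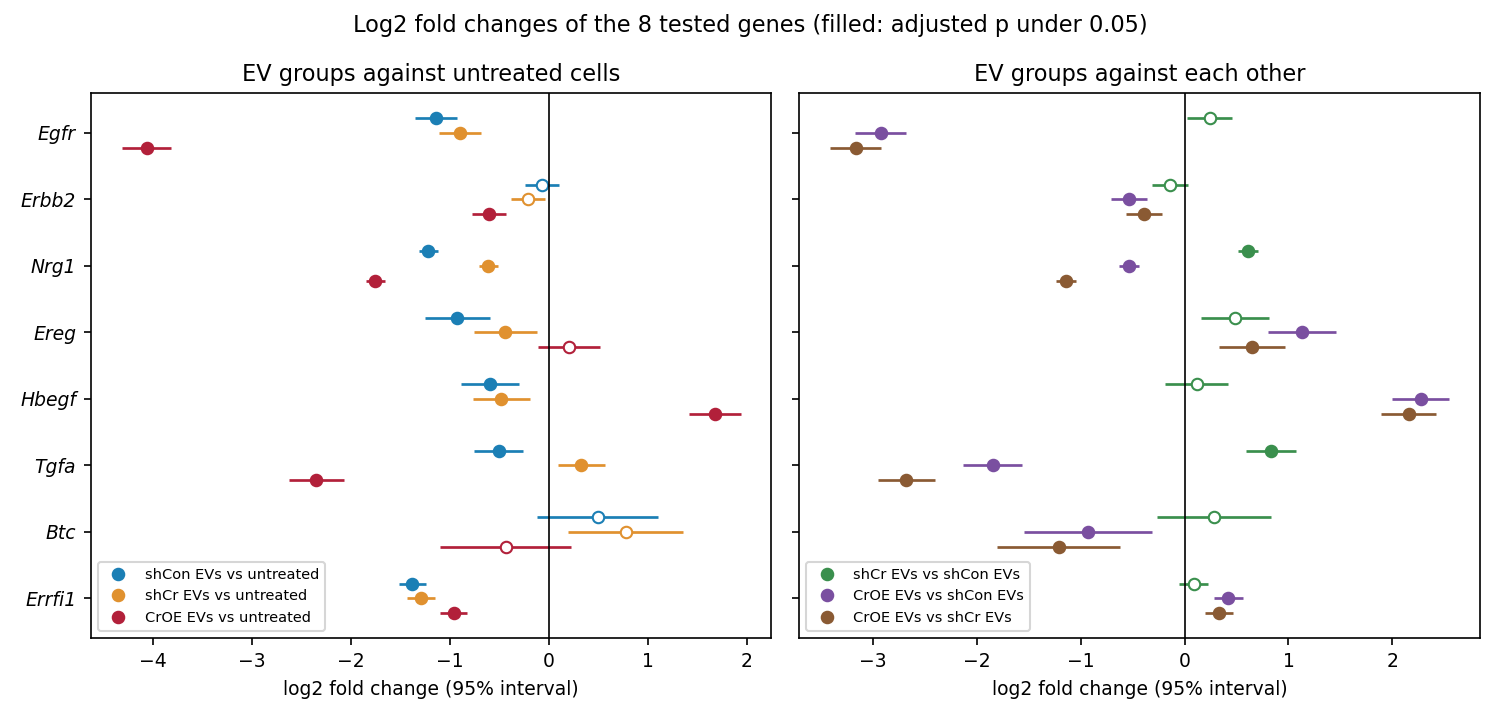
Points are log2 fold changes of the 8 tested genes with 95% intervals, against untreated cells on the left and between EV groups on the right, and filled points have an adjusted p under 0.05. In the left panel Egfr lies at -4.07 and Hbegf at 1.68 after CrOE EVs, and the right panel shows Nrg1 and Tgfa as the filled points of the shCr against shCon comparison.

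Exons of Erbb2, Ereg, Tgfa and Nrg1 overlap exons of Mien1, Gm19610, Gm43917 and Gm26578 on the opposite strand in GENCODE M21. The libraries were directional, but whether reads were counted by strand is not given in the sources used here, so reads of these pairs may not have been told apart. Of the 31-base stretches of each member's transcripts, at most 0.852%, in Egfr, also occurred in transcripts of another mouse gene. Human transcripts were not searched, so whether human RNA from the EVs was counted was not tested.

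Levels of different genes were compared as RPKM, the TMM-scaled CPM per kilobase of merged exons. In untreated cells Nrg1 was highest at 22.3 ± 0.375 RPKM (SD, n = 3), followed by Errfi1 at 18.3 ± 1.43 RPKM. Egfr at 12.3 ± 2.01 RPKM and Erbb2 at 10.2 ± 0.635 RPKM overlapped and could not be ordered. Ereg followed at 6.73 ± 1.07 RPKM, Tgfa at 1.38 ± 0.197 RPKM, Hbegf at 0.741 ± 0.0780 RPKM and Btc at 0.0711 ± 0.0113 RPKM.

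The order differed in EV-treated cells. After shCon EVs Erbb2 (9.73 ± 0.417 RPKM) and Nrg1 (9.58 ± 0.0298 RPKM) overlapped at the top, above Errfi1 at 7.04, Egfr at 5.55 and Ereg at 3.54 RPKM. After shCr EVs Nrg1 led at 14.6 ± 0.189 RPKM, above Erbb2 at 8.83 RPKM and Errfi1 at 7.48 RPKM, while Egfr at 6.57 RPKM and Ereg at 4.98 RPKM overlapped. After CrOE EVs the order by mean was Errfi1 at 9.42 ± 0.387 RPKM, Ereg at 7.76 ± 0.947 RPKM, Erbb2 at 6.73 ± 0.276 RPKM, Nrg1 at 6.62 ± 0.267 RPKM, Hbegf at 2.37 ± 0.149 RPKM, Egfr at 0.731 ± 0.0156 RPKM and Tgfa at 0.269 ± 0.0268 RPKM. Egf, at 0.251 RPKM, overlapped Tgfa, and the ranges of Erbb2 and Nrg1 overlapped. Egfr thus moved from the level of Erbb2 to below Ereg and Hbegf. With the longest transcript as the length, Nrg1 was the highest in every group (42.7, 18.3, 27.9 and 12.7 RPKM in the untreated, shCon, shCr and CrOE groups), so the place of Nrg1 depends on the length used.

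**Figure D3:**
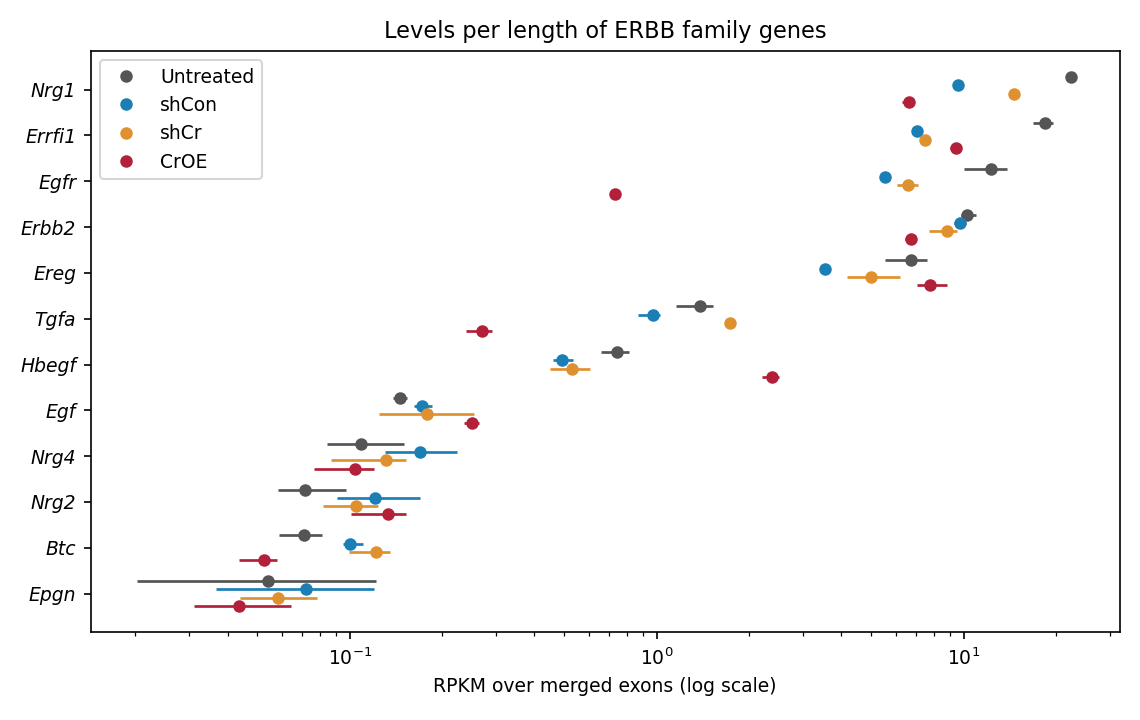
Mean RPKM over merged exons on a log axis is plotted for ERBB family genes by group, with lines from the lowest to the highest of 3 libraries; Erbb3, Areg, Erbb4 and Nrg3 are not drawn. Egfr is at 0.731 RPKM after CrOE EVs and at 5.55 to 12.3 RPKM in the other groups, and Ereg stays between 3.54 and 7.76 RPKM.

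The EGFR ligands were then summed per length, over Ereg, Tgfa, Hbegf, Egf, Btc, Areg and Epgn, to see which ligand mRNAs made up the total. The sum was 9.16 ± 0.959 RPKM in untreated cells, 5.36 ± 0.113 RPKM after shCon EVs, 7.62 ± 1.06 RPKM after shCr EVs and 10.9 ± 1.14 RPKM after CrOE EVs (SD, n = 3). The shCon libraries were lower than all others, the shCr and untreated ranges overlapped and the CrOE libraries were above all others. No test was made of these sums. Ereg was the largest part everywhere, at 73.3%, 66.1%, 64.9% and 71.0% of the sum in the untreated, shCon, shCr and CrOE groups. The parts of Hbegf and Tgfa changed places. Hbegf made up 6.91% to 9.29% of the sum in untreated, 8.58% to 9.75% in shCon, 5.94% to 8.82% in shCr and 20.4% to 23.5% in CrOE libraries. Tgfa made up 11.7% to 18.9% in untreated, 16.6% to 18.9% in shCon, 19.9% to 24.6% in shCr and 2.32% to 2.71% in CrOE libraries. Relative to Egfr per length, the ligand sum was 0.714 to 0.807 in untreated, 0.958 to 0.968 in shCon, 1.08 to 1.25 in shCr and 13.8 to 17.1 in CrOE libraries. These are ratios of mRNA and say nothing of protein.

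**Figure D4:**
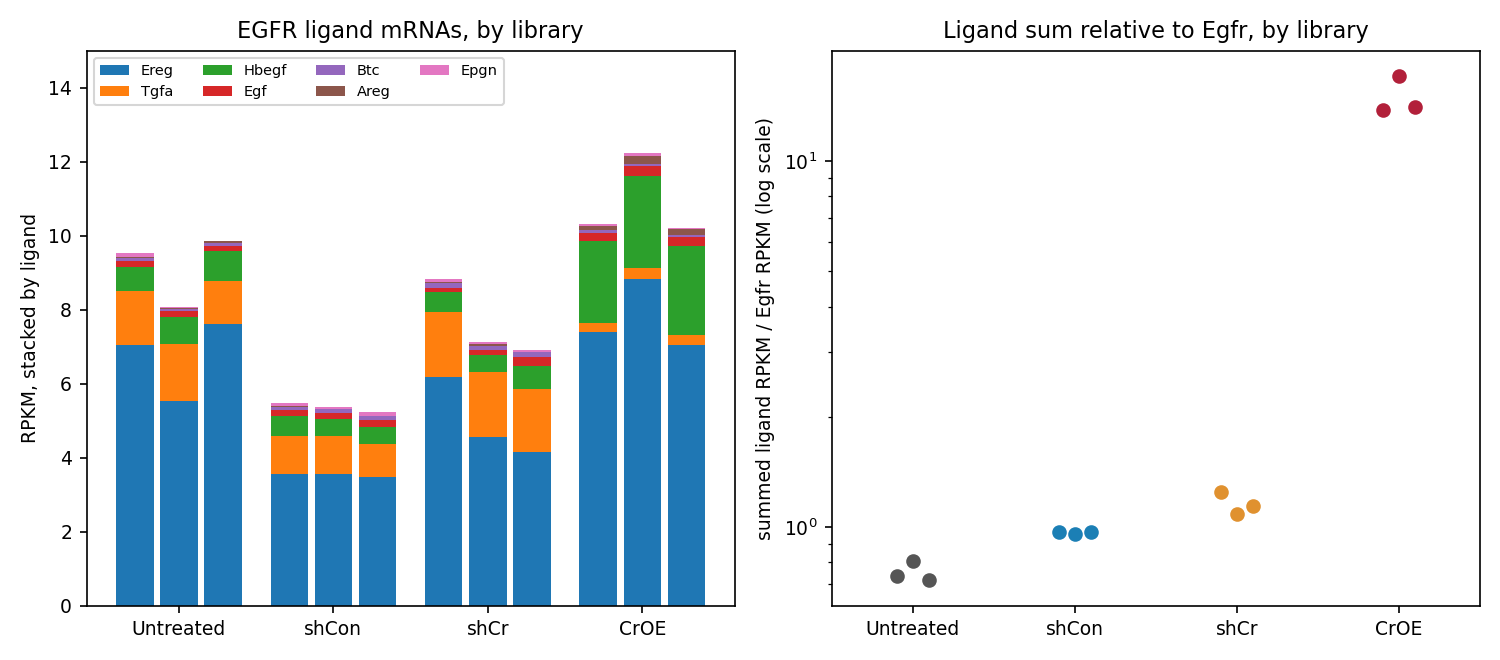
The left panel stacks the RPKM of the 7 EGFR ligands by library and the right panel plots their sum divided by the RPKM of Egfr on a log axis. The ratio is 13.8 to 17.1 in the CrOE libraries and 0.714 to 1.25 in the others, and the Hbegf part of the bar is largest in the CrOE libraries.

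Genes that release the ligands or regulate that release, in either direction, were lower after CrOE EVs. Of 10 sheddase genes and their regulators, which include the inhibitor gene Timp3, all were called lower in the CrOE group than in the untreated group. Their median log2 fold change was -0.69, where 37.0% of all genes were lower and the median of all genes was 0.0078. Over the alternatives 8 to 10 were called lower, except that a fold change of at least 2 left 2. After shCon EVs 5 were lower and 2 higher, where 20.2% of all genes were lower and 18.0% higher. After shCr EVs 4 were lower and 1 higher, where 18.8% of all genes were lower and 18.4% higher. Timp3, a secreted inhibitor of ADAM17 and of matrix metalloproteinases, held 95.0, 76.1 and 99.4 CPM in untreated, 47.7, 50.1 and 49.2 CPM in shCon, 33.5, 28.8 and 28.3 CPM in shCr and 4.88, 6.05 and 6.32 CPM in CrOE libraries. It fell 15.6-fold after CrOE EVs (log2 fold change -3.97, SE 0.123, adjusted p = 1.13e-11) and 2.99-fold with shCr EVs (a log2 fold change of -1.58, adjusted p = 1.95e-07), and the 4 groups did not overlap. Adam17, the sheddase of Tgfa, Areg, Ereg and Hbegf precursors, rose after shCr EVs, from 118 to 124 CPM in untreated to 186 to 211 CPM in shCr libraries (log2 fold change 0.70, adjusted p = 1.37e-06). It stood at 164 to 167 CPM in shCon libraries, also above untreated, and at 94.4 to 107 CPM in CrOE libraries, below untreated. Adam8, a membrane protease of the same family, had a mean of 10.6 CPM in untreated cells and fell to 4.59 CPM with shCon EVs (log2 fold change of -1.21, adjusted p = 1.27e-04). Its mean was 4.01 CPM with shCr and 2.55 CPM with CrOE EVs. Rhbdf1, whose product escorts ADAM17, was called higher in the shCon group (by 0.50 on the log2 scale, adjusted p = 0.0293), a call lost without untreated library 1 (0.112) or 3 (0.105) and without shCon library 2 (0.0739) or 3 (0.0885).

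Genes that switch the receptors off were called about as often as all genes. Of 16 such genes 15 were tested, and 3 were called higher and 3 lower after shCon EVs, 2 and 3 after shCr EVs, and 8 and 4 after CrOE EVs, each against untreated cells. These are 6, 5 and 12 of 15 called, where 38.1%, 37.3% and 73.7% of all genes were called, so the counts lay near the background shares. Without shCr library 1 the shCr counts were 4 and 4, with 6698 genes in all called instead of 5320. Lrig1, a membrane protein that promotes degradation of ERBB receptors, rose from 154 to 163 CPM in untreated to 229 to 238 CPM in shCon and 282 to 298 CPM in shCr libraries (log2 fold changes 0.57 and 0.87, adjusted p = 2.47e-06 and 5.30e-08). Its CrOE libraries held 165 to 182 CPM. Ptpn1, a phosphatase that acts on EGFR, fell from a mean of 86.1 CPM to 59.8 CPM after shCon and 61.8 CPM after shCr EVs (log2 fold changes -0.53 and -0.48, adjusted p = 6.89e-06 and 1.33e-05). Its mean was lowest after CrOE EVs, at 54.0 CPM. After CrOE EVs Ptpn12, another tyrosine phosphatase, rose by 0.75 on the log2 scale to 116 CPM, from 69.0 CPM (adjusted p = 1.01e-07). Socs5, which promotes EGFR breakdown, fell by 1.23 to 56.2 CPM, from 132 CPM (adjusted p = 2.09e-10). Its mean was also below untreated with the other EVs, at 98.1 CPM after shCon and 104 CPM after shCr EVs.

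The cascade genes between receptor and ERK changed little in size. Of the 19 RAS-ERK genes, all tested, 3 were called higher and 3 lower after shCon EVs, 2 and 2 after shCr EVs and 7 and 7 after CrOE EVs. The 14 of 19 called with CrOE EVs lay at the background share of 73.7%, and the 6 and 4 of 19 called with shCon and shCr EVs lay below the shares of 38.1% and 37.3% of all genes. The shCon counts were 1 and 2 without untreated library 3, where 4301 genes in all were called instead of 5447. Over the alternatives other than the fold change of at least 2, 3 to 9 of the 19 were called with shCon EVs. The shCr counts were 1 and 1 without untreated library 1, untreated library 3, shCr library 2 or shCr library 3 (4429, 4254, 4578 and 4693 genes in all). They were 4 and 3 without untreated library 2 (5371 genes in all) and 3 and 4 without shCr library 1 (6698), beside 5320 in the main fit. The median size of change was 0.12, 0.087 and 0.45 on the log2 scale, against 0.23, 0.22 and 0.60 for all genes. Ksr1, a scaffold of the cascade, had the largest called fall in each comparison, from a mean of 96.3 CPM to 63.1, 71.4 and 55.1 CPM with shCon, shCr and CrOE EVs (log2 fold changes -0.61, -0.43 and -0.80, adjusted p = 1.51e-04, 0.00177 and 2.54e-06). Araf, which encodes a kinase of the cascade, had the largest called rise in the shCon group (0.41 on the log2 scale, adjusted p = 0.0129). Its mean was 72.7 CPM in untreated cells, 96.5 CPM after shCon EVs, 92.4 CPM after shCr EVs and, below untreated, 52.1 CPM after CrOE EVs. The Araf call was lost without untreated library 1 (0.0618) or 3 (0.0655) and without shCon library 3 (0.0613).

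In the PI3K-AKT, phospholipase C and STAT branch, 10 genes were tested, with 3 called higher and 2 lower after shCon EVs, 2 and 3 after shCr EVs and 2 and 6 after CrOE EVs. All genes were called at 38.1%, 37.3% and 73.7%, and the 8 of 10 called with CrOE EVs lay near that share. Without untreated library 1 or shCr library 3 the shCr counts were 2 and 1, with 4429 and 4693 genes in all called instead of 5320. Stat3, a transcription factor activated below growth factor and cytokine receptors, had the largest called fall in each comparison. It stood at a mean of 447 CPM in untreated cells, 365 CPM after shCon EVs, 361 CPM after shCr EVs and 151 CPM after CrOE EVs (log2 fold changes -0.29, -0.31 and -1.57, adjusted p = 7.19e-04, 4.57e-04 and 2.42e-11). The largest called rise in each comparison was in a PI3K subunit gene, a different one each time. Pik3r2 rose by 0.43 on the log2 scale with shCon EVs (adjusted p = 8.35e-04) and Pik3r1 after shCr EVs (0.62, adjusted p = 3.11e-05). Pik3cb, a catalytic subunit, rose after CrOE EVs (0.87, adjusted p = 2.42e-08). After CrOE EVs the mean of Pik3r2 was below untreated, at 136 against 198 CPM, as was that of Pik3r1, at 76.1 against 119 CPM. Pik3cb stayed near its untreated mean of 21.1 CPM with shCon and shCr EVs, at 21.4 and 20.9 CPM.

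Genes that ERK signalling is known to induce were mostly lower after shCon EVs. Of 19 feedback and target genes, all tested, 14 were called lower and 1 higher than in untreated cells, with a median log2 fold change of -0.58, where 20.2% of all genes were called lower. After shCr EVs 10 were lower and 4 higher (median -0.23), where 18.8% of all genes were lower and 18.4% higher. After CrOE EVs 10 were lower and 6 higher (median -0.30), where 37.0% of all genes were lower and 36.7% higher, so that the 16 of 19 called lay near the share of 73.7% over all genes. Between shCr and shCon EVs 11 of the 19 were called, all higher after shCr EVs (median 0.40), where 5.22% of all genes were called higher. Dusp5, a nuclear ERK phosphatase, held 8.57, 9.30 and 8.87 CPM in untreated, 1.29, 1.63 and 1.95 CPM in shCon, 1.83, 2.18 and 2.39 CPM in shCr and 7.48, 8.29 and 8.11 CPM in CrOE libraries. It fell 5.49-fold after shCon EVs (adjusted p = 4.93e-08) and 4.15-fold after shCr EVs (adjusted p = 1.27e-07), while the CrOE difference was not called (log2 fold change -0.16, 95% interval -0.41 to 0.091, adjusted p = 0.227).

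Dusp4, a related ERK phosphatase, moved the other way. Its libraries held 13.1, 14.8 and 12.5 CPM untreated, 23.2, 22.0 and 24.5 CPM after shCon EVs, 32.9, 36.9 and 35.3 CPM after shCr EVs and 189, 213 and 191 CPM after CrOE EVs. The 4 groups did not overlap, and Dusp4 rose 1.72-fold, 2.60-fold and 14.6-fold against untreated cells (adjusted p = 8.67e-06, 4.97e-08 and 4.93e-13). Ccnd1, which encodes cyclin D1, held 281, 278 and 305 CPM in untreated and 13.1, 15.4 and 13.6 CPM in CrOE libraries, a 20.5-fold fall (log2 fold change -4.35, SE 0.0723, adjusted p = 8.42e-14). The other EV libraries also lay below the untreated ones, at 97.7 to 107 CPM in the shCon and 161 to 164 CPM in the shCr group.

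A further 4 of these genes are named here after their values were seen. Spry1, a Sprouty inhibitor of receptor tyrosine kinase signalling, was lower with shCon EVs (by a log2 fold change of -0.39, adjusted p = 0.00727), higher after shCr EVs (0.54, adjusted p = 6.98e-04) and lower after CrOE EVs (-1.70, adjusted p = 9.17e-09), each against untreated cells. Its relative Spry2 showed the same signs (-0.57, 0.39 and -1.25, adjusted p = 1.06e-05, 1.87e-04 and 8.11e-10). Between shCr and shCon EVs the difference itself was 0.93 for Spry1 and 0.96 for Spry2 on the log2 scale (adjusted p = 1.00e-04 and 1.94e-06). Myc, the growth-promoting transcription factor, rose 6.74-fold after CrOE EVs (mean 34.9 to 235 CPM, adjusted p = 5.49e-11) and was called in neither of the other comparisons with untreated cells; without shCr library 3 it was called lower with shCr EVs (log2 fold change -0.32, adjusted p = 0.0256). Ier3, an immediate early gene, rose 4.60-fold after CrOE EVs (mean 53.2 to 245 CPM, adjusted p = 9.87e-13). It was lower with shCon EVs (log2 fold change -0.25, adjusted p = 0.00178) and higher in the shCr than in the shCon group (0.41, adjusted p = 3.13e-04). Its rise of 0.16 with shCr EVs against untreated cells (adjusted p = 0.0255) was lost in the fit of those 2 groups (0.0944), without a low-count filter (0.0891) and without untreated library 1 (0.0726), untreated library 3 (0.106), shCr library 2 (0.0742) or shCr library 3 (0.0526).

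**Figure D5:**
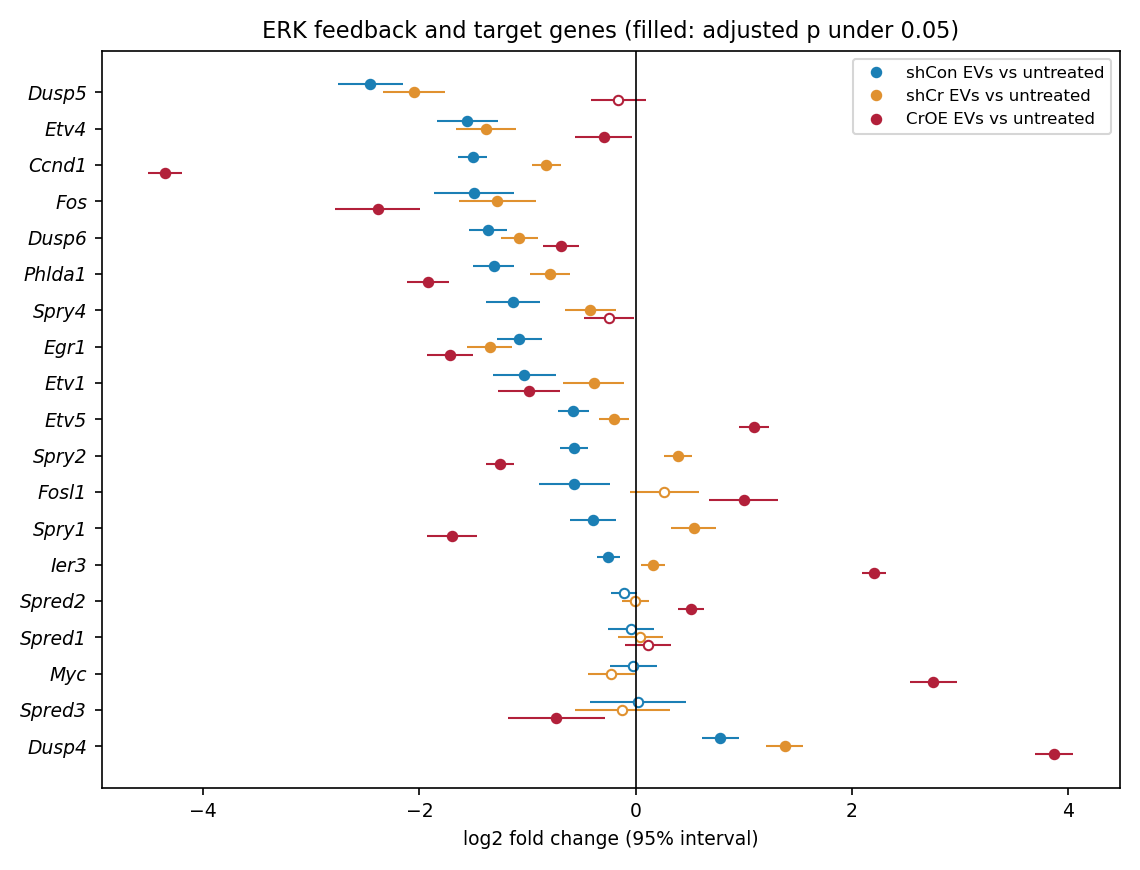
Log2 fold changes of the 19 ERK feedback and target genes against untreated cells are plotted with 95% intervals for shCon, shCr and CrOE EVs, filled where the adjusted p is under 0.05. Most shCon points lie left of 0, and the CrOE points spread from -4.35 (Ccnd1) to 3.87 (Dusp4).

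Exons of Egf, Nrg4, Timp3, Adam8, Adam17, Lrig1, Ksr1, Araf, Pik3r2, Stat3, Dusp5, Spry1 and Ccnd1 also overlap a gene on the opposite strand in GENCODE M21, with the same limit on telling strands apart.

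The genes most like 3 of the members over the 12 libraries were found by Pearson correlation of log2 CPM among tested genes whose average log2 CPM was 3 or more. The values describe these libraries only, because the 12 points share 4 groups and the CrOE group stands apart. Nearest to Egfr were Pros1, encoding the anticoagulant protein S (r = 0.999), Cdo1, a cysteine dioxygenase gene (r = 0.998), and Rgl1, a Ral activator gene (r = 0.997). Pros1 stood at 206, 125, 134 and 32.6 CPM in the untreated, shCon, shCr and CrOE groups. In all, 814 of 9766 genes exceeded an r of 0.95 with Egfr. Nearest to Hbegf were Aimp2, a scaffold of the tRNA synthetase complex (r = 0.995), the histone methyltransferase gene Kmt5a (r = 0.991) and the splicing factor gene U2af1 (r = 0.990). Hbegf had 698 genes above 0.95. Nearest to Errfi1 were Tyms, thymidylate synthase (r = 0.992), the tropomyosin gene Tpm4 (r = 0.990) and the phosphatase gene Ptpn9 (r = 0.987). Errfi1 had 51 genes above 0.95. Tpm4 stood at 1085, 479, 508 and 590 CPM in the same order of groups, the order of levels that Errfi1 had.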

How the data were processed

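Bulk RNA-seq of 12 libraries (4 groups of 3) was analysed. Libraries were directional and poly(A)-selected, per the labels' protocols. The deposited values are the authors' estimated counts by gene symbol, in 1 table, not scaled between libraries. The submitters' processing notes name featureCounts and mm39, but 39.8% of the values were not whole, so they were taken as estimated (expected) counts and rounded; the test planned for raw counts was kept. The aligner, annotation and strand setting are not given in the sources used here. Totals ranged from 25960054 to 37774020.

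Genes were filtered with filterByExpr, scaled by TMM and tested by the quasi-likelihood test of edgeR (version 4.0.16 under R 4.3.3) on all 12 libraries, with a mean per group and 8 residual degrees of freedom. Benjamini-Hochberg adjustment ran over 14279 genes in each of 6 comparisons. The biological coefficient of variation was 8.90%. Log2 fold changes are those of edgeR. The fit was run on simulated data in which far fewer genes changed, and by less, than in the CrOE comparisons. That run does not cover scaling under changes as wide as those. Log2 CPM used a prior count of 2. Exon lengths and overlaps came from GENCODE M21 and start windows from RefSeq, both GRCm38.p6, so no coordinates of the authors' build are given. Alternatives were DESeq2 1.42.0, 2 other scalings, 2 other filters, a fold change of at least 2, a fit of the 2 groups compared, the replicate number as a block and each library left out in turn.

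The members, gene lists and rules were chosen with earlier results of these data known. Named pathway genes were, per list and comparison with untreated cells, the called gene with the largest rise and fall among those whose average log2 CPM was 1 or more, without overlap between libraries; 2 of them are not reported here. No 2 libraries of a group agreed within sampling noise (chi-square over genes, per degree of freedom 2.84 to 70.0).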

Additional observations from a re-analysis of the deposited data

How the results depend on the processing

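Over the alternatives, 618 log2 fold changes of the 8 tested members kept their direction and their side of the threshold, 37 lost the call, 9 gained one and 1 changed sign. With a fold change of at least 2 required, 3 members were called with shCon EVs, 1 with shCr EVs and 4 with CrOE EVs against untreated cells, 0 between shCr and shCon EVs, 4 between CrOE and shCon EVs and 5 between CrOE and shCr EVs. The calls over all genes were then 863, 897, 4245, 108, 3884 and 4223. In the fit of the 2 groups compared, the shCr count against untreated cells was 3, with 3754 genes in all called instead of 5320. Between shCr and shCon EVs that kind of fit called 641 genes in all instead of 1247. With 1 library left out, the shCr count against untreated cells ranged from 3 to 6, and the cause was not tested. Calls over all genes then ranged from 4254 to 6698. The sign turned, with no call on the turned side, for the following values when 1 library was left out. Hbegf between shCr and shCon EVs ranged from -0.0081 (without shCr library 3) to 0.22. Myc with shCon EVs against untreated cells ranged from -0.072 to 0.028 and was above 0 without untreated library 2 (0.0037) and without shCon library 1. Nrg4 with CrOE EVs against untreated cells ranged from -0.21 to 0.24 and was above 0 without untreated library 2 and without CrOE library 2 (0.12). Nrg2 ranged from -0.032 (without shCon library 1) to 0.46 between CrOE and shCon EVs and from -0.39 to 0.11 (without shCon library 2) between shCr and shCon EVs. Egf with shCr EVs ranged from -0.051 to 0.50 against untreated cells and from -0.29 to 0.26 against shCon EVs, both lowest without shCr library 3. DESeq2 size factors and library totals moved the median of all genes by less than 0.1 and turned no member's sign. Of 9 same-number correlations between untreated, shCon and shCr libraries, 4 exceeded 0.1 (range -0.13 to 0.32). Correlations between libraries of different numbers ranged from -0.36 to 0.35. With 3 libraries per group these values cannot decide whether the replicate numbers pair the libraries. With the replicate number as a block in those 9 libraries, 6, 6 and 2 members were called for shCon and shCr EVs against untreated cells and for shCr against shCon EVs, with 5401, 5178 and 995 genes in all, beside 4908, 4874 and 964 without the block. With the block Myc was called lower with shCr EVs against untreated cells (log2 fold change -0.24, adjusted p = 0.0336), and the call of Ier3 in that comparison was lost (0.15, adjusted p = 0.0533). The block was not run for the CrOE comparisons because those columns carry no number of the labels. The fit of those 9 libraries without the block, the alternatives for genes other than the members, and the longest transcript as length were chosen after seeing the data. With that length, Hbegf made up 30.6% of the ligand sum in the CrOE group and 11.9% in the untreated group, and the ligand sum over Egfr was 16.0 and 0.776. Btc was not tested with at least 10 counts in every library, nor in the fit of CrOE and untreated libraries alone. At 0 to 9 counts per library, depth limits Areg and Erbb3.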
